A study of Mus musculus with 10 samples.

Results

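Histone H4 carries acetyl groups on several lysines of its N-terminal tail, and 2 of these, lysine 5 (K5) and lysine 8 (K8), are compared here within each of 2 stages of male germ cell development. The members were the islands, stretches of DNA enriched in chromatin immunoprecipitation followed by sequencing (ChIP-seq), that had been called on chromosomes 1 to 19 for H4K8ac and H4K5ac in spermatocytes and in round spermatids. They numbered 35370 for H4K8ac and 43505 for H4K5ac in spermatocytes and 27526 and 36549 in round spermatids, 142950 in all, out of 301484 on all chromosomes in the 8 lists of the series. Spermatocytes are the germ cells in meiosis, and round spermatids are the haploid cells that follow. Both were fractionated from testes of mice of the strain Oncins France 1, and mononucleosomes were immunoprecipitated with a rabbit antibody against each mark, per the labels. Sodium butyrate was in the immunoprecipitation buffer of every mark, and both acetyl antibodies came from a single laboratory, those against butyryl marks from a supplier. The labels give no treatment or altered genotype for any group, and the sources used here do not give the age and number of the animals or the purity of the fractions. Each mark had 1 library per stage and each stage 1 input library, sequenced from nucleosomes without immunoprecipitation and shared by the marks of that stage. No difference could therefore be set against the spread of replicates, and no p-value was computed. Intervals are 95%, exact Clopper-Pearson for percents and exact conditional binomial for folds, and reflect counting error alone. Those of medians come from order statistics and reflect how regions differ.

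Acetylation of the H4 tail loosens contacts between nucleosomes and marks active promoters. In male germ cells the tail acetylated at both K5 and K8 is bound by the first bromodomain of BRDT, a testis-specific reader protein needed for spermatogenesis. Hyperacetylation of H4 later precedes the replacement of histones in elongating spermatids. Regions are named by mm9 coordinates, counted from 1, because genes, promoters and cell type marker genes were not analysed here.

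The libraries differed in ways that touch every comparison below. The H4K8ac library was the larger of each stage, by 1.36 times in spermatocytes and 1.49 times in round spermatids, as judged from the constants that scale the deposited folds. It nevertheless gave the shorter list and the lower enrichment. The fold over input, pooled over a list, was 4.05 for H4K8ac and 6.25 for H4K5ac in spermatocytes, and 3.08 and 5.35 in round spermatids. ChIP reads inside islands numbered 5524237 for H4K8ac and 8066787 for H4K5ac in spermatocytes and 4665744 and 8275605 in round spermatids. An antibody that enriches its target less and a mark that is less abundant cannot be told apart in such data.

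Nearly every H4K8ac island lay on an H4K5ac island, while a larger part of the H4K5ac list had no H4K8ac. Islands that shared at least 1 bp were called shared, and the others private. In spermatocytes, 33560 H4K8ac islands were shared, 94.9% of the list (94.6 to 95.1), and 32251 H4K5ac islands, 74.1% (73.7 to 74.5). In round spermatids, 26780 H4K8ac islands were shared, 97.3% (97.1 to 97.5), and 24624 H4K5ac islands, 67.4% (66.9 to 67.9). Private islands were thus 1810 for H4K8ac and 11254 for H4K5ac in spermatocytes, and 746 and 11925 in round spermatids. They held few of the reads, 2.18% of H4K8ac and 8.96% of H4K5ac ChIP reads in spermatocytes and 1.19% and 10.9% in round spermatids. Counted in bases, both marks covered 98.9 Mb together in spermatocytes, H4K5ac alone 49.7 Mb and H4K8ac alone 16.7 Mb. In round spermatids they covered 107 Mb together, H4K5ac alone 75.5 Mb and H4K8ac alone 7.62 Mb. These percents depended on list length. With the H4K5ac list shortened by fold to the length of the H4K8ac list, 86.03% of H4K8ac and 82.04% of H4K5ac islands were shared in spermatocytes, and 85.8% and 77.96% in round spermatids.

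Private islands were narrower and weaker than shared ones for both residues. In spermatocytes the median width was 1800 bp for private islands of either mark, against 2800 bp for shared H4K8ac and 3000 bp for shared H4K5ac islands. In round spermatids it was 2000 bp against 3200 bp for H4K8ac and 2400 bp against 4800 bp for H4K5ac. The median private H4K8ac island held 61 ChIP reads in each stage, over 30 input reads in spermatocytes and 42 in round spermatids. The median private H4K5ac island held 54 over 26 and 68 over 43. The median deposited fold of private and shared islands was 2.52 and 4.24 for H4K8ac and 3.57 and 6.54 for H4K5ac in spermatocytes. It was 2.06 and 3.13, and 3.397 and 5.40, in round spermatids. An island of lower fold is also one less far above the calling threshold. Input was denser under private islands of both marks. For H4K8ac the median was 17.1 reads per kb in spermatocytes against 14.0 under shared ones, and 20.5 against 17.3 in round spermatids. For H4K5ac the medians were closer, 15.0 against 13.8 and 17.5 against 17.1. In round spermatids the densest 5% of private H4K8ac islands exceeded 41.6 input reads per kb, where the same limit for shared ones was 24.0. For H4K5ac these limits were 24.2 and 22.9.

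**Figure D1:**
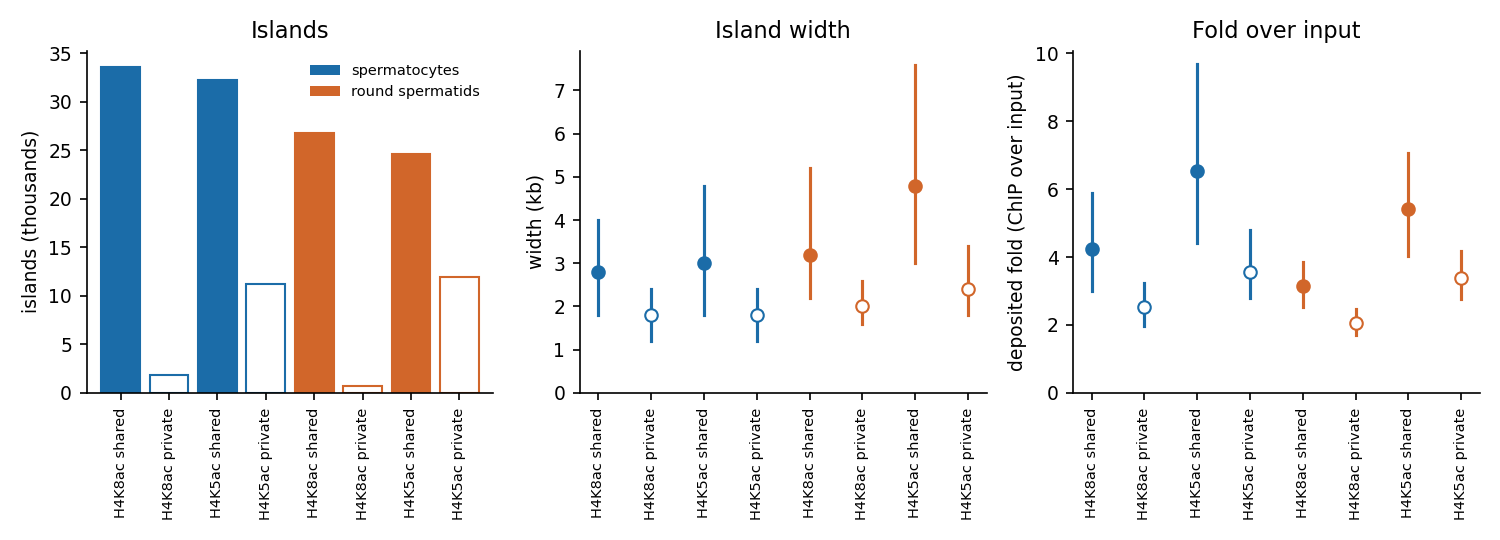
Islands of H4K8ac and H4K5ac by stage, shared (filled) or private (open): the number of islands on a scale of 1000, the width in kb and the deposited fold of ChIP over input, with points at the median and lines from the 25th to the 75th percentile. Private H4K8ac islands are few in both stages, 1810 and 746, and private islands sit below shared ones in width and fold.

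How often an H4K5ac island also carried H4K8ac followed its own fold. Among H4K5ac islands with a fold from 2 to 3, 36.1% (34.8 to 37.5) were shared in spermatocytes and 30.4% (29.1 to 31.6) in round spermatids. From 4 to 6 the values were 73.8% (73.0 to 74.6) and 74.5% (73.7 to 75.3), and from 8 upward 95.1% (94.7 to 95.4) and 96.2% (95.5 to 96.8). At an equal H4K5ac fold neither stage was the higher throughout, whereas over the whole lists spermatocytes were. Round spermatids had 3780 H4K5ac islands of fold 8 and above, and spermatocytes 12738. For H4K8ac, 74.9% (72.9 to 76.9) of islands with a fold from 1 to 2 were shared in spermatocytes, and the value for round spermatids was 85.9% (84.4 to 87.3). At a fold from 4 to 6 the values were 98.3% and 99.7%.

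The butyryl marks of the same lysines, which neither definition used, were found more often at private H4K5ac than at private H4K8ac islands. Butyrylation places a longer acyl chain on the same lysines, and its lists share the input library of their stage with the acetyl lists. In spermatocytes H4K5bu overlapped 39.0% (38.1 to 39.9) of private H4K5ac islands and 29.7% (27.6 to 31.8) of private H4K8ac islands, and H4K8bu 61.3% (60.4 to 62.2) and 28.9% (26.8 to 31.0). In round spermatids H4K5bu overlapped 73.1% (72.3 to 73.9) and 58.3% (54.7 to 61.9), and H4K8bu 63.8% (62.9 to 64.6) and 38.3% (34.8 to 41.9). Shared acetyl islands overlapped either butyryl mark in 92.1% to 98.8% of cases. Of private islands, 54.6% of the H4K8ac set and 29.0% of the H4K5ac set in spermatocytes had neither butyryl mark, and 33.2% and 17.7% in round spermatids. Private islands were rarely the fringe of a nearby island of the other residue. The nearest one lay within 1000 bp for 5.14% of private H4K8ac and 3.51% of private H4K5ac islands in spermatocytes and for 9.25% and 1.79% in round spermatids. The median gap was 14200 bp and 16800 bp, and 10800 bp and 28400 bp.

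Among private islands with at least 100 ChIP reads, the highest folds were lower for H4K8ac than for H4K5ac. The H4K8ac sets were also much the smaller, and a larger set can reach a higher maximum. This read minimum leaves out most private islands. Of all private islands 12.04% of H4K8ac and 39.2% of H4K5ac had a fold over 4 in spermatocytes, and 2.41% and 30.1% in round spermatids. Among shared islands these shares were 54.3% and 81.1%, and 20.5% and 75.5%, so the lower H4K8ac folds were not particular to private islands. In spermatocytes, of 104 H4K8ac-only regions with at least 100 ChIP reads, the highest fold was on chromosome 3 from 39932601 to 39936400, where 143 ChIP reads over 56 input reads gave 3.18 (2.32 to 4.41). H4K8bu had an island there with a fold of 4.14 and H4K5bu had none, and the same held for the next regions in rank, on chromosome 18 from 76483801 to 76486400 and on chromosome 5 from 120191001 to 120194600. Of 956 H4K5ac-only regions, the highest fold was 28.4 (12.6 to 79.3), from 101 ChIP over 6 input reads on chromosome 14 from 76815401 to 76817200. The region on chromosome 8 from 72404001 to 72407600 had 158 ChIP over 13 input reads, a fold of 20.5 (11.7 to 39.4), beside folds of 11.9 for H4K5bu and 13.3 for H4K8bu. Another, on chromosome 16 from 92696001 to 92699000, had a fold of 17.96 (9.68 to 36.96), with 9.58 and 14.7 for the butyryl marks. In round spermatids only 35 H4K8ac-only regions reached 100 ChIP reads, 4.69% of the private islands, and the highest fold among them was 3.013 (2.12 to 4.34), on chromosome 17 from 14888601 to 14891000. For H4K5ac 1849 did, 15.5% of its longer private list, among them chromosome 12 from 56224201 to 56227600 with 126 ChIP over 17 input reads, a fold of 15.7 (9.42 to 27.8). On chromosome 6 from 47113801 to 47116800, 106 ChIP over 9 input reads gave an H4K5ac fold of 24.9 (12.7 to 56.01), and neither H4K8ac nor a butyryl mark had an island. These H4K5ac regions were chosen for a high fold and lay on sparse input, 3 to 5 reads per kb, so their folds rest on few input reads.

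Where both marks were called, H4K8ac islands were the narrower, and more so in round spermatids. A single H4K8ac island met a single H4K5ac island in 29979 pairs in spermatocytes and 22356 in round spermatids. Starts and ends fell on multiples of 200 bp. The H4K8ac island lay inside the H4K5ac island, with no edge beyond it, in 41.7% (41.1 to 42.2) of pairs in spermatocytes and in 64.5% (63.8 to 65.1) in round spermatids. The reverse held in 24.6% (24.1 to 25.1) and 8.49% (8.12 to 8.86). Edges crossed in 29.2% (28.7 to 29.7) and 25.3% (24.7 to 25.9), and both edges were the same in 4.51% (4.28 to 4.75) and 1.77% (1.598 to 1.95). The median ratio of H4K8ac to H4K5ac width was 0.933 in spermatocytes and 0.769 in round spermatids. H4K5ac reached beyond H4K8ac by a mean of 175 bp on the left and 184 bp on the right in spermatocytes, and by 659 bp and 667 bp in round spermatids, so that the left and right sides were alike. For H4K8bu and H4K5bu, the order between the stages was the opposite: the K8 island lay inside the K5 island in 40.2% (39.7 to 40.8) of pairs in spermatocytes and in 24.6% (24.1 to 25.1) in round spermatids. That difference could not be tested with 1 library per mark and stage. The median K8 to K5 width ratio of the butyryl pair was 0.947 in spermatocytes and 1.06 in round spermatids, while its pooled folds were 4.70 for H4K8bu and 4.18 for H4K5bu and then 3.79 and 4.01. Width and pooled fold thus moved apart for butyryl, whereas for acetyl both were relatively lower for H4K8ac in round spermatids. The part of the pooled fold in the widths was not tested.

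**Figure D2:**
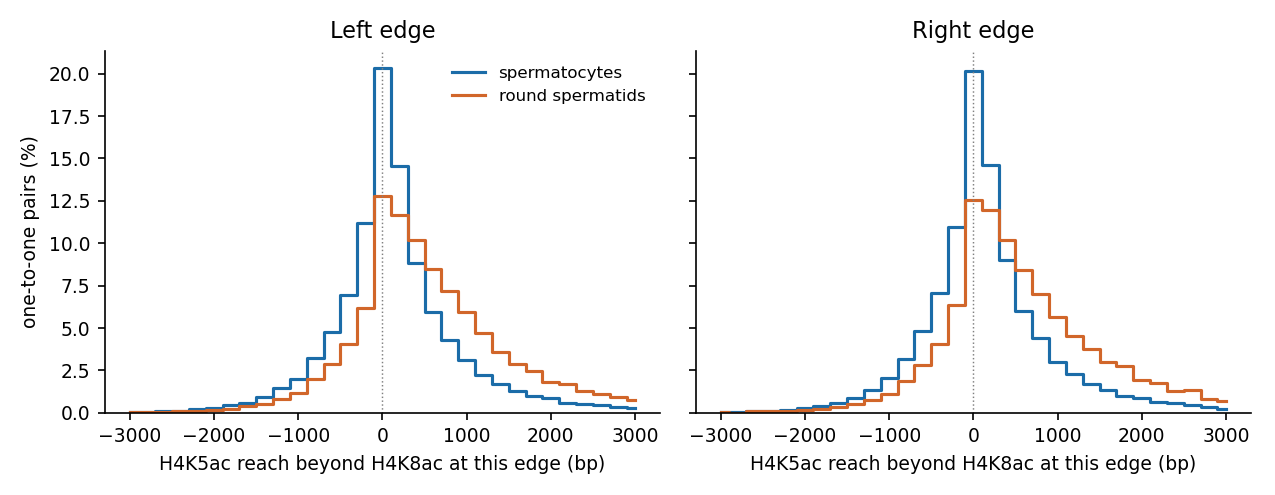
Percent of one-to-one pairs by how far H4K5ac reached beyond H4K8ac at the left and at the right edge, in bp on the 200 bp grid, shown from -3000 to 3000 bp; positive values mean that H4K5ac extended farther. In spermatocytes 20.3% of left and 20.2% of right edges coincided, in round spermatids 12.8% and 12.6%, and the round spermatid curves lean to the positive side.

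Wide H4K5ac islands more often held several H4K8ac islands than the reverse. In spermatocytes 1596 H4K5ac islands, 4.95% of the shared ones, met at least 2 H4K8ac islands, with a median width of 8600 bp, and 398 H4K8ac islands (1.19%) met at least 2 of H4K5ac. In round spermatids the numbers were 2028 (8.24%), with a median width of 11800 bp, and 159 (0.594%). The H4K5ac island that reached farthest beyond its partner, by 22000 bp in spermatocytes, was on chromosome 8 from 19679601 to 19760800. It had 123 input reads per kb and folds of 1.11 (1.07 to 1.14) for H4K5ac and 1.095 (1.06 to 1.13) for H4K8ac. The next in rank lay on sparser input. On chromosome 6 from 83768001 to 83788600 in spermatocytes, H4K5ac covered 20600 bp with a fold of 4.47 (3.94 to 5.07), and H4K8ac covered 8800 bp of it with a fold of 4.65 (3.81 to 5.71). On chromosome 3 from 108203001 to 108220600 in round spermatids, H4K5ac covered 17600 bp with a fold of 6.19 (5.33 to 7.21) and H4K8ac 3400 bp with a fold of 4.699 (3.42 to 6.56). The pairs in which H4K8ac reached farthest, like that first H4K5ac pair, lay on dense input, 42.2 to 55.5 reads per kb, with H4K8ac folds of 1.07 to 1.26. On chromosome 8 from 72054001 to 72080600 in round spermatids, H4K8ac covered 26600 bp with 51.5 input reads per kb and a fold of 1.21 (1.12 to 1.31). On chromosome 13 from 66522201 to 66546800 in spermatocytes it covered 24600 bp with 55.5 input reads per kb and a fold of 1.07 (0.993 to 1.16).

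The K8 to K5 ratio was taken as the fold of H4K8ac over that of H4K5ac in each region of merged, overlapping islands with both marks, 31844 in spermatocytes and 24463 in round spermatids. In the median region of spermatocytes H4K8ac held 128 ChIP reads and H4K5ac 164, and in round spermatids 124 and 200. The median fold was 4.25 for H4K8ac and 6.57 for H4K5ac in spermatocytes, and 3.14 and 5.41 in round spermatids. The median log2 ratio was -0.66 (-0.66 to -0.65) in spermatocytes, a ratio of 0.634, and -0.81 (-0.81 to -0.80) in round spermatids, a ratio of 0.571. H4K8ac had the higher fold in 2009 regions (6.31%) of spermatocytes and 610 (2.49%) of round spermatids. The H4K8ac fold was the lower by the median on every autosome: the chromosome medians ran from -0.69 to -0.63 in spermatocytes and from -0.83 to -0.79 in round spermatids. For H4K8bu against H4K5bu, over the same inputs, spermatocytes had a median of 0.22 (0.22 to 0.23) and round spermatids one of -0.076 (-0.079 to -0.072).

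**Figure D3:**
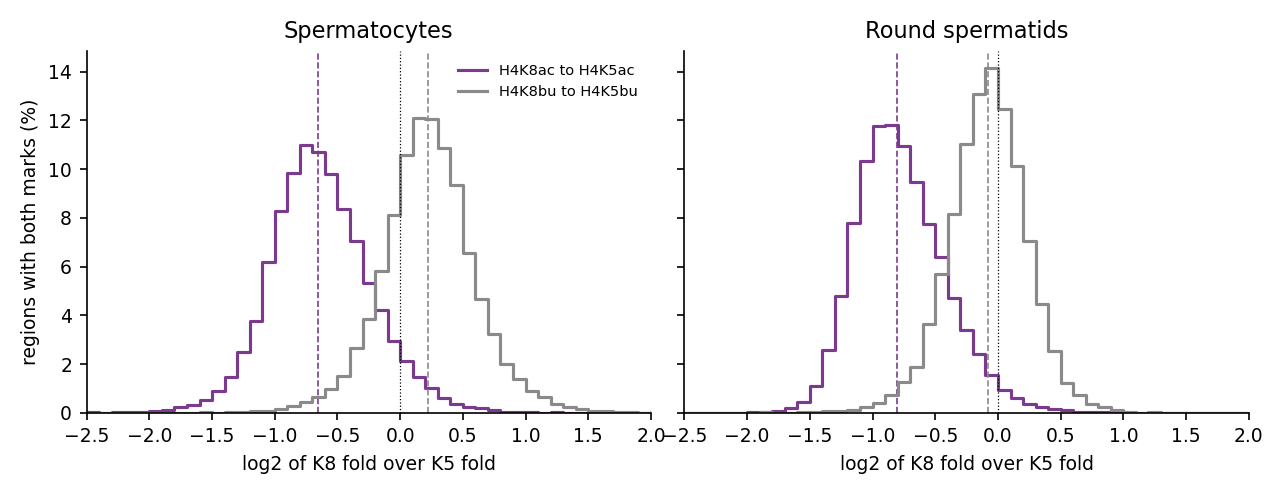
Percent of regions with both marks by the log2 of the K8 fold over the K5 fold, in bins of 0.1, for the acetyl and the butyryl pair in each stage; dashed lines mark the medians and the dotted line equal folds. The acetyl curves lie left of 0 with medians of -0.66 and -0.81, and the butyryl curves have medians of 0.22 and -0.076.

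Pairs with the same start and end gave the ratio over the same bases. There were 1353 of them in spermatocytes and 395 in round spermatids, and in each pair both lists gave the same number of input reads, so the ratio came from ChIP reads alone. Its median was -0.60 (-0.63 to -0.57) on the log2 scale in spermatocytes, a ratio of 0.660, and -0.85 (-0.88 to -0.81), or 0.554, in round spermatids. H4K8ac was the higher in 56 and 3 of these pairs. Among pairs with at least 100 ChIP reads for each mark, 592 in spermatocytes and 180 in round spermatids, the log2 ratio had a standard deviation of 0.23 and 0.27 across pairs. Counting error alone gives 0.15 and 0.14 at these depths if reads are independent. Duplicate reads could not be removed by molecular identifiers, and with 1 library per mark other technical noise could not be measured. Whether the pairs differed by more than noise was therefore not tested. The ratio of folds differed with how the edges lay. In spermatocytes its median was -0.51 (-0.52 to -0.51) where H4K8ac lay inside H4K5ac and -0.83 (-0.84 to -0.82) where H4K5ac lay inside H4K8ac. In round spermatids the values were -0.72 (-0.73 to -0.71) and -1.02 (-1.04 to -0.9999), and in each stage the narrower mark had the relatively higher fold.

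The ratio was lower in wide and in strongly marked regions of both stages. With regions divided by width into 5 classes of equal size, the median ratio was 0.728 in the narrowest class and 0.590 in the widest in spermatocytes, and 0.628 and 0.516 in round spermatids. By the mean log2 fold of both marks, it was 0.694 in the weakest and 0.586 in the strongest class in spermatocytes, and 0.667 and 0.50003 in round spermatids. Input density ran against strength, with a median of 18.7 reads per kb in the weakest and 10.8 in the strongest class in spermatocytes and 21.5 and 15.3 in round spermatids, and its part in the trend was not tested. Taken over fold minus 1, the enrichment above the input level, the trend with width remained, at a log2 ratio of -0.59 in the narrowest and -0.97 in the widest class in spermatocytes and -0.96 and -1.22 in round spermatids. That with strength was small in spermatocytes, -0.83 and -0.86, and remained in round spermatids, -0.97 and -1.20. Only regions called for both marks entered, so those with H4K8ac too weak to be called were left out. The narrowest class held a median of 65 H4K8ac reads in each stage, and the part of this filter in the trends was not tested.

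**Figure D4:**
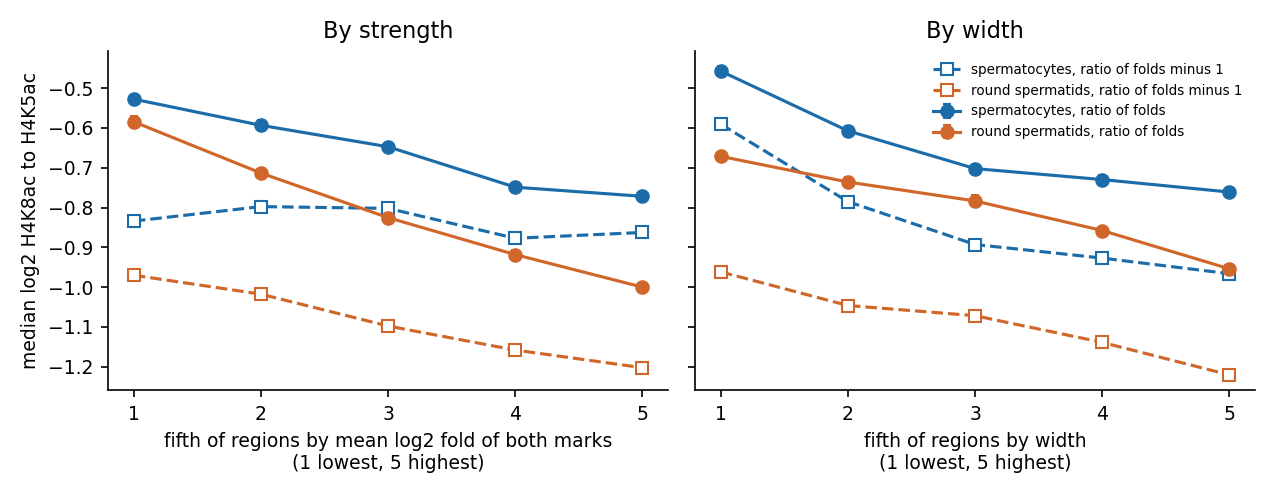
Median log2 H4K8ac to H4K5ac ratio in 5 equal classes of regions by the mean log2 fold of both marks and by width, as the ratio of folds (filled, with 95% intervals mostly smaller than the points) and of folds minus 1 (open, dashed). With the ratio of folds all 4 lines descend from the first to the last class; with folds minus 1 the spermatocyte line by strength is nearly flat, from -0.83 to -0.86.

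Few regions stood far from the median of their stage. In spermatocytes 454 regions had a ratio more than 2-fold above the median, 1.43% of all, and 205 more than 2-fold below it, 0.644%. In round spermatids these were 234 (0.957%) and 15 (0.0613%). Named extremes were taken from regions with at least 100 ChIP reads in each list and at least 80% of covered bases shared, 7937 in spermatocytes and 5182 in round spermatids. The lowest ratio of spermatocytes was on chromosome 19 from 58584801 to 58587800, 171 H4K8ac reads over 33 input reads, a fold of 6.44 (4.42 to 9.66), against 195 H4K5ac reads over 13, a fold of 25.3 (14.5 to 48.4). The ratio of folds there was 0.254 but that of scaled ChIP reads 0.646 (0.523 to 0.797), above the 0.572 that was the median of such ratios in the stage. H4K8ac was called over 3000 bp with 11 input reads per kb, and H4K5ac over 2400 bp of it with 5.42. Over all regions of spermatocytes the median cover was 2800 bp for H4K8ac and 3000 bp for H4K5ac. Scaled reads are not divided by width, so the place of this region above 0.572 does not hold per kb. In round spermatids the median ratio of scaled reads was 0.427, and the regions with the lowest ratios of folds had values near it. That nearness does not hold per kb, since scaled reads are not divided by width. Over all regions of the stage the median cover was 3400 bp for H4K8ac and 4800 bp for H4K5ac. In the regions named next H4K8ac covered more bases than H4K5ac, 7800 bp against 6800 bp in the first. On chromosome 16 from 4073401 to 4081200, H4K8ac had 310 reads and a fold of 3.43 (2.79 to 4.25) and H4K5ac 508 reads and a fold of 10.8 (8.66 to 13.5), a ratio of folds of 0.319 and of scaled reads of 0.409 (0.354 to 0.472). On chromosome 7 from 74514201 to 74520600 the ratios were 0.319 and 0.415 (0.350 to 0.491), and on chromosome 16 from 69795201 to 69804400 they were 0.326 and 0.448 (0.392 to 0.511). The highest ratio of spermatocytes was 1.37 on chromosome 4 from 16088801 to 16091800, with 102 H4K8ac reads over 11 input reads and 110 H4K5ac reads over 22. By scaled reads this region had a ratio of 0.683 (0.517 to 0.902). The 3 highest of round spermatids lay on dense input, 43.0 to 192 reads per kb of the H4K8ac island, with H4K8ac folds of 1.13 to 1.501. That on chromosome 8 from 19765201 to 19793600 had 2544 H4K8ac and 1601 H4K5ac reads over 3184 and 3180 input reads, and folds of 1.13 (1.08 to 1.19) and 1.07 (1.003 to 1.13).

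Merging the 4 acetyl lists gave 53912 regions. Of all these, 24267 had both marks in round spermatids, 11729 H4K5ac alone, 726 H4K8ac alone and 17190 neither. Of the regions with an acetyl island in spermatocytes, those with both marks most often had both in round spermatids. Of 30865 regions with both marks in spermatocytes, 16998 (55.1%) had both in round spermatids, 3424 (11.1%) H4K5ac alone, 223 (0.723%) H4K8ac alone and 10220 (33.1%) neither. Of 10406 regions with H4K5ac alone in spermatocytes, 3446 (33.1%) had both in round spermatids, 1496 (14.4%) H4K5ac alone and 5426 (52.1%) neither. Of 1728 with H4K8ac alone, 1544 (89.4%) had neither mark in round spermatids and 16 had H4K8ac alone again. In the other direction, 6710 of the 11729 regions with H4K5ac alone in round spermatids (57.2%) had neither mark in spermatocytes, and 3424 (29.2%) had both. Of the 726 with H4K8ac alone, 449 (61.8%) had neither. Counted from spermatocytes, 61.5% (60.99 to 61.9) of H4K5ac regions had an island of that mark in the other stage, against 53.1% (52.6 to 53.6) for H4K8ac. The values were closer when counted from round spermatids, 70.5% (69.99 to 70.9) against 69.2% (68.7 to 69.8). The H4K5ac lists were also the longer, covering 149 Mb against 116 Mb in spermatocytes and 182 Mb against 114 Mb in round spermatids. Regions with both marks in both stages were also wide, with a median of 6600 bp. The median was 1400 bp for H4K5ac alone and then neither, and 1600 bp for H4K8ac alone and then neither. A wide merged region has more room for islands of several lists. The part of list size and of width in these shares was not tested. A missing island means that a place was not called, which is not a measured absence.

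At the 16998 regions with all 4 lists the residue ratio was lower in round spermatids. Their median log2 ratio was -0.71 in spermatocytes, a ratio of 0.610, and -0.87, or 0.547, in round spermatids. The median difference per region, round spermatids minus spermatocytes, was -0.16 (-0.17 to -0.15), or 0.894-fold, and 10950 regions (64.4%) had a lower ratio in round spermatids. H4K8ac folds had a median difference of -0.43 (-0.44 to -0.41) and H4K5ac folds one of -0.31 (-0.33 to -0.29). The bases covered by H4K5ac were 1.24 times as many in round spermatids by the median and those by H4K8ac 1.09 times. In one-to-one pairs the ratio of folds shifted toward the narrower mark, but the median H4K8ac fold was the lower in every edge class. Among one-to-one pairs the difference of the medians was -0.25 with the same edges, -0.21 with H4K8ac inside, -0.19 with H4K5ac inside and -0.18 with crossed edges. All 19 autosomes had a lower median in round spermatids, from -0.22 on chromosome 12 to -0.14 on chromosome 4. By width the difference was -0.068 (-0.086 to -0.048) in the narrowest of 5 classes and -0.23 (-0.25 to -0.22) in the widest. With folds minus 1 these classes were closer in proportion, at -0.18 and -0.29. The butyryl pair had a median difference of -0.37 (-0.37 to -0.36) over 18769 regions with its 4 lists. By edges, the butyryl difference of medians was -0.29 with H4K8bu inside, -0.23 with H4K5bu inside and -0.25 with crossed edges, each larger in size than for acetyl. With the same edges it was -0.17, smaller than the -0.25 of acetyl. These edge classes hold different pairs in each stage, and the same-edge class is small, 1353 and 395 pairs for acetyl. The acyl groups share the inputs, and the difference between them was not tested.

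The ratios of a region in the 2 stages were only weakly related. Across the 16998 regions, which are not independent replicates, the log2 ratios of the stages had a Pearson correlation of 0.11 and a Spearman correlation of 0.12, and 0.098 and 0.0996 over the 11029 regions with at least 100 ChIP reads in each list. ChIP and input libraries of the stages were different. The difference between stages had a standard deviation of 0.47 over all regions, and counting error of ChIP and input reads would give 0.44 if the 2 input counts of a stage were independent. They share bases, so this is an upper estimate, and ChIP reads alone give 0.22. How much of the spread exceeded counting error was not resolved, and the weak correlation is given as a description.

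**Figure D5:**
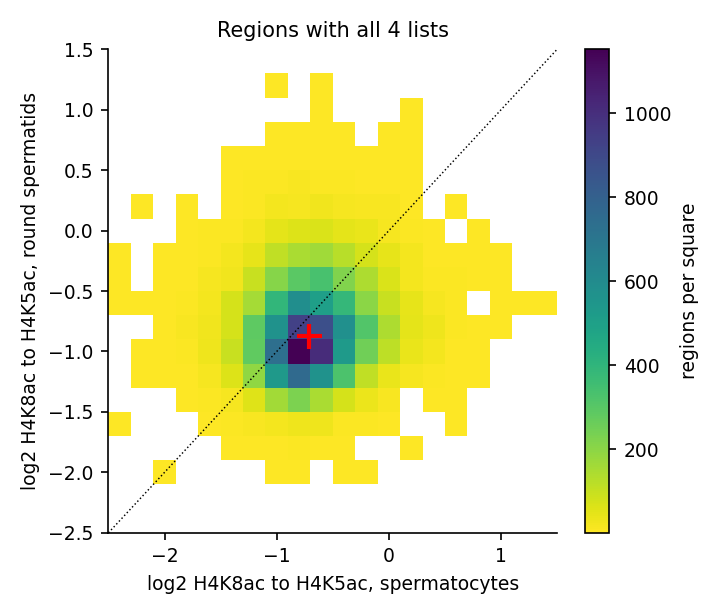
Log2 H4K8ac to H4K5ac ratio in spermatocytes against that in round spermatids for the 16998 regions with all 4 lists (7 lie outside the plotted range); colour gives the number of regions per square, the dotted line equal ratios and the red cross the medians, -0.71 and -0.87. The cloud is nearly round and lies mostly below the line.

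A difference more than 2-fold above the median difference was seen in 459 regions, 2.7% of those with all 4 lists, and more than 2-fold below it in 210, 1.24%. Counting error, with a standard deviation of up to 0.44, would put some regions past these limits by itself. How many was not tested. Named regions came from the 9483 with at least 100 ChIP reads in each list and at least 50% of covered bases shared in each stage. They were ranked on this difference, so their folds and intervals lend it no support and do not tell which mark differed. The ratio of folds was higher in round spermatids by most on chromosome 8 from 114533601 to 114539600. There H4K8ac had 269 reads and a fold of 4.99 (3.81 to 6.63) in spermatocytes and 162 reads and a fold of 5.89 (4.13 to 8.59) in round spermatids. H4K5ac had 339 reads and a fold of 17.3 (12.1 to 25.6) and then 330 reads and a fold of 6.85 (5.47 to 8.64). The H4K8ac island was 4600 bp wide in spermatocytes and 3200 bp in round spermatids, and the H4K5ac island 3600 bp and 5600 bp. Unlike the ratio of folds, that of ChIP reads was lower in round spermatids. On chromosome 12 from 79787201 to 79799800 the H4K8ac fold was 2.04 (1.69 to 2.47) over 10000 bp and 4.94 (4.02 to 6.10) over 7200 bp. The H4K5ac folds were 6.696 (5.29 to 8.56) over 6000 bp and 6.17 (5.36 to 7.13) over 12600 bp. Here too the ratio of ChIP reads was lower in round spermatids, with 297 H4K8ac against 349 H4K5ac reads and then 418 against 770. The ratio was lower in round spermatids by most on chromosome 4 from 100150801 to 100155200. H4K8ac had 202 reads and a fold of 12.6 (7.92 to 21.0) in spermatocytes and 185 reads and a fold of 5.47 (3.96 to 7.67) in round spermatids, and H4K5ac 352 reads and 368, folds of 11.9 (8.82 to 16.3) and 15.9 (11.8 to 21.9). The H4K8ac island covered 2400 bp with 20 input reads in spermatocytes and 4200 bp with 48 in round spermatids. On chromosome 3 from 66221401 to 66228200 the H4K8ac fold was 7.797 (5.49 to 11.4) and 3.37 (2.68 to 4.25), and the H4K5ac fold 7.82 (6.001 to 10.3) and 9.82 (7.95 to 12.2), so the ratio was 0.997 and 0.343.

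The region with the highest mean log2 fold of the 4 lists lay on chromosome 10 from 20670801 to 20674800. H4K8ac had 223 ChIP reads over 13 input reads in spermatocytes, a fold of 21.3 (12.2 to 40.7), and 117 over 33 in round spermatids, a fold of 5.03 (3.39 to 7.64). H4K5ac had 381 over 14, a fold of 45.9 (27.0 to 84.8), and 190 over 40, a fold of 10.1 (7.12 to 14.5). Both folds were several times lower in round spermatids, yet the K8 to K5 ratio was 0.464 and 0.5001. The next region, on chromosome 15 from 89143401 to 89147200, had H4K8ac folds of 14.4 (9.003 to 24.4) and 7.30 (4.49 to 12.5) and H4K5ac folds of 28.3 (17.9 to 47.7) and 10.8 (7.30 to 16.4), and ratios of 0.508 and 0.677. Both regions had been chosen for their folds.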

How the data were processed

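ChIP-seq of H4K5ac, H4K8ac, H4K5bu and H4K8bu in mouse spermatocytes and round spermatids gave 8 deposited island lists, each made against the input of its stage. Per the submitters' processing notes, CASAVA 1.8.2, Bowtie2 2.2.5, deepTools 1.5.11 and SICER were used with mm9; their settings are not given in the sources used here. Deposited island lists hold ChIP and input read counts per island, a p-value, a fold (the ratio of scaled ChIP to input reads) and a false discovery rate (q-value) as the authors' caller wrote them. In the files the fold equalled ChIP over input reads times 1 constant per list, which gave the scaling used here, except at 1 island without input reads in each spermatocyte acetyl list. Reads carry no molecular identifiers, so intervals cover counting error only.

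Islands on chromosomes 1 to 19 were compared with Python 3.11.15, numpy 2.4.6, pandas 2.3.3 and scipy 1.17.1, and the code was tested on simulated data. Islands sharing at least 1 bp were shared. The ratio was taken in merged regions from summed ChIP and input reads of each mark. Ratios of scaled ChIP reads use reads divided by library size only, without input. The regions named were, per stage, the 3 highest and 3 lowest ratios (at least 100 ChIP reads in each list, 80% of bases shared), the 3 highest folds of each mark alone, and the 2 pairs in which each mark reached farthest. Across stages they were the 3 regions with the largest difference in each direction and the strongest regions. Examples of these are printed. The members, lists and rules were chosen with earlier results of these data known. Alternatives changed the overlap, the q-value (at most 1e-05), list length, read minimum, use of input, edges and input density. Each group had 1 library, so no test was run. Chromosomes other than 1 to 19 were left out of the comparisons, and gene assignment and sequences were not analysed here.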

Additional observations from a re-analysis of the deposited data

Results flagged for a closer look

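In spermatocytes the median log2 ratio of the K8 fold over the K5 fold had opposite signs for the acyl groups, -0.66 for acetyl and 0.22 for butyryl. That difference was not tested, since each mark had 1 library. The pooled fold moved with it, 4.05 for H4K8ac and 6.25 for H4K5ac against 4.70 for H4K8bu and 4.18 for H4K5bu.

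The X chromosome, left out of the comparisons, held 406 H4K8ac and 755 H4K5ac islands in spermatocytes and 468 and 1271 in round spermatids. The spermatocyte lists shared 99.0% (97.5 to 99.7) of H4K8ac and 52.6% (48.95 to 56.2) of H4K5ac islands there, and the round spermatid lists 86.3% (82.9 to 89.3) and 29.9% (27.4 to 32.5). The median log2 ratio was -0.74 (-0.78 to -0.67) over 394 regions with both marks in spermatocytes and -0.698 (-0.75 to -0.65) over 377 in round spermatids. The intervals of the stages overlapped, which those of the autosomes did not.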

How the results depend on the processing

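No paired analysis was possible because each group had 1 library. The 9 results were compared with another setting 43 times, and 36 values moved beyond their interval. The median log2 ratios and their difference between stages kept their sign throughout. The other results are percents, which have no direction to change. H4K8ac and then H4K5ac islands shared in spermatocytes, followed by the same for round spermatids, were 79.7%, 64.8%, 72.7% and 54.8% with 50% of both islands overlapping, 91.4%, 71.95%, 91.0% and 64.4% in the upper 50% by fold, 86.03%, 82.04%, 85.8% and 77.96% with lists of equal length, and 99.5%, 95.9%, 99.8% and 91.5% with at least 100 ChIP reads. With a q-value of at most 1e-05 they were 95.3% and, in round spermatids, 97.98% and 66.5%, while H4K5ac in spermatocytes stayed within its interval. The order of the stages in H4K8ac sharing was not stable. Round spermatids were the higher in the main lists, 97.3% against 94.9%, with the stricter q-value and with at least 100 reads. Spermatocytes were the higher with 50% of both islands overlapping and, by little, in the upper 50% by fold and with lists of equal length. H4K8ac inside H4K5ac was 44.4% of spermatocyte pairs with at least 100 reads. The median log2 ratio in spermatocytes and round spermatids was -0.81 and -1.23 from scaled ChIP reads alone, -0.65 and -0.79 per kb of island, -0.60 and -0.85 with the same edges and -0.75 and -0.91 with at least 100 reads. The difference between stages was -0.33 from scaled ChIP reads, -0.15 per kb, -0.14 with 1 island of each list and -0.20 with at least 100 reads. Chosen after seeing the data, folds minus 1 gave -0.84 and -1.10 and a difference of -0.23, and regions with at least 90% of bases shared gave a difference of -0.24. The cause of these shifts was not tested. Without replicates no value can be set against biological or technical spread, and an island missed at this depth cannot be told from an absent mark.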
